A study of Gallus gallus with 28 samples.

Results

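Control basilar papillae sampled at 72, 96 and 120 h were compared with control papillae sampled at 48 h, which gave 3 samples against 2 out of the 28 of the series. They were taken by their titles, as all control samples of these 4 times, and no measured value entered the choice. Papillae came from chicken, and gene expression was measured by RNA sequencing of total RNA. The series holds treated samples, which per the labels received streptomycin for 24 h and then recovered, and control samples, whose treatment is given as none, over 8 times from 0 to 168 h in steps of 24 h. Treated papillae at 72, 96 and 120 h (5 samples) and at 48 h (2 samples) were used to test whether the change in controls differed between the arms. The labels do not state the strain, the age of the birds, the event that sets 0 h, or how control papillae were kept between dissection and sampling. The series text calls the samples of a time biological samples but does not say whether they came from separate animals or cultures. The p-values therefore measure the spread between samples only. For the control comparison that spread was taken over all 13 control samples, not only the 5 compared. Each of 72, 96 and 120 h is a single control library here, so a time and its library cannot be told apart. The table also has columns named as second control samples of these 3 times, which matched no sample description and were not used here.

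The basilar papilla is the auditory epithelium of birds. Its hair cells carry actin-rich stereocilia that open mechanotransduction channels, and they release transmitter at ribbon synapses. Supporting cells surround each hair cell, lay down the tectorial membrane from proteins such as the tectorins, and give rise to new hair cells after damage in birds. Dissected tissue around the epithelium can also hold cartilage, mesenchyme, glia, neurites, vessels and resident leukocytes, so lists of marker genes for each were followed beside the hair cell and supporting cell lists.

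Levels are in RPKM, read numbers scaled to gene length and library size, as the authors deposited them. The 5 libraries held 18.55 to 38.17 M alignments, with 38.17, 26.72 and 18.55 M at 72, 96 and 120 h and 35.23 and 19.96 M at 48 h. Counts per gene were not used here, so no counting intervals are given. None of the 45 hair cell function markers in the table was at 0 in all 5 libraries, and of the 23 supporting cell markers only HES5 and LGR6 stayed under 1 RPKM in all 5, so markers of both epithelial cell types were detected. The 2 ribosomal RNA features in the table took 1.48, 0.639 and 0.0428% of summed RPKM at 72, 96 and 120 h, against 0.113 and 0.219% at 48 h. Their part in the results was not tested.

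In all, 1099 of 11973 features tested (9.18%) passed at a limma adjusted p under 0.05. Of these, 322 were higher at 72 to 120 h (2.69%) and 777 were lower (6.49%). Among them 94 rose (0.785%) and 157 fell (1.31%) by at least 1 on the log2 scale. Differences are fitted means of log2(RPKM + 1) at 72 to 120 h minus 48 h, with their standard errors, and the scale understates the change of low genes. The median difference over all features was -0.01. At an unadjusted limma p under 0.05 there were 3155 of the 11973 features, counting both directions. Unadjusted counts in gene lists are to be read against that share. Falls outnumbered rises under every setting tried, but rescaling libraries by median-of-ratios factors gave 530 rises and 704 falls, which brought the share of rises among calls to 42.9%, against 29.3% as deposited. The count rested heavily on single libraries. It was 142 without sample 1 of 48 h, 71 without sample 2 of 48 h, 385 without the 96 h library, 553 without the 120 h library and 1816 without the 72 h library. All 1099 calls kept their direction under each of the 14 alternatives, and 4 rises and 48 falls also kept adjusted p under 0.05 in every case. Genes that did so are said to hold in every fit. Of 102 called genes that were followed by name 17 did, and the other 85 lost their call without at least 1 of the 48 h libraries. Counts over gene lists moved likewise. No list had more than 1 rise when either 48 h library was left out, and the falls in a list numbered at most 4 without sample 1 and at most 1 without sample 2.

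The libraries lay in order of time. On the first principal component of the 13 control libraries, which held 51.8% of the variance, the 72, 96 and 120 h libraries stood at 1.63, 20.1 and 31.9, against -18.6 and -17.9 at 48 h. The 72 h library was therefore nearer to 48 h than the other two were. Genes that rose had median differences from the 48 h mean of 0.57, 0.82 and 1.02 at 72, 96 and 120 h, and 196 of 322 (60.9%) increased in that order, a pattern held by 32.1% of all features. Genes that fell had medians of -0.62, -0.83 and -0.76, and 228 of 777 (29.3%) decreased in that order, against 12.8% of all features.

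GSN and TECTB had the largest falls among genes with a symbol. The 15 largest rises and 15 largest falls were chosen to have no overlap between groups, so their separation is not a result in itself. Over all features, 19.8% had all 3 later libraries above both 48 h libraries and 25.4% had all 3 below. GSN encodes gelsolin, which severs and caps actin filaments. It stood at 498, 286 and 205 RPKM at 72, 96 and 120 h, against 2771 and 4459 RPKM at 48 h, so the groups did not overlap and the mean at 48 h was 11 times the later mean (-3.51 ± 0.34, limma adjusted p = 0.000329). It held in every fit. Its level had been 4086 and 4099 RPKM at 0 h and 3923 and 6083 RPKM at 24 h, and was 203 to 332 RPKM at 144 to 168 h. TECTB, which encodes beta-tectorin, a matrix protein of the tectorial membrane, stood at 293, 69.8 and 41.8 RPKM at 72, 96 and 120 h, against 812 and 1004 RPKM at 48 h. Every later library was below both 48 h libraries, with the 72 h library nearest to 48 h (-3.23 ± 0.64, adjusted p = 0.0113). Without sample 2 of 48 h its adjusted p was 0.113. OTOA encodes otoancorin, which anchors the tectorial membrane to supporting cells, and stood at 5.8, 2.98 and 4.35 RPKM at 72, 96 and 120 h, against 18.5 and 25.8 RPKM at 48 h (-2.12 ± 0.25, adjusted p = 0.000893). OTOA held in every fit and showed no overlap, as the choice of genes required. At the start of the series it stood at 79.7 and 80.8 RPKM at 0 h and 42.5 and 42.9 RPKM at 24 h, so the drop after 48 h continued an earlier one.

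**Figure D1:**
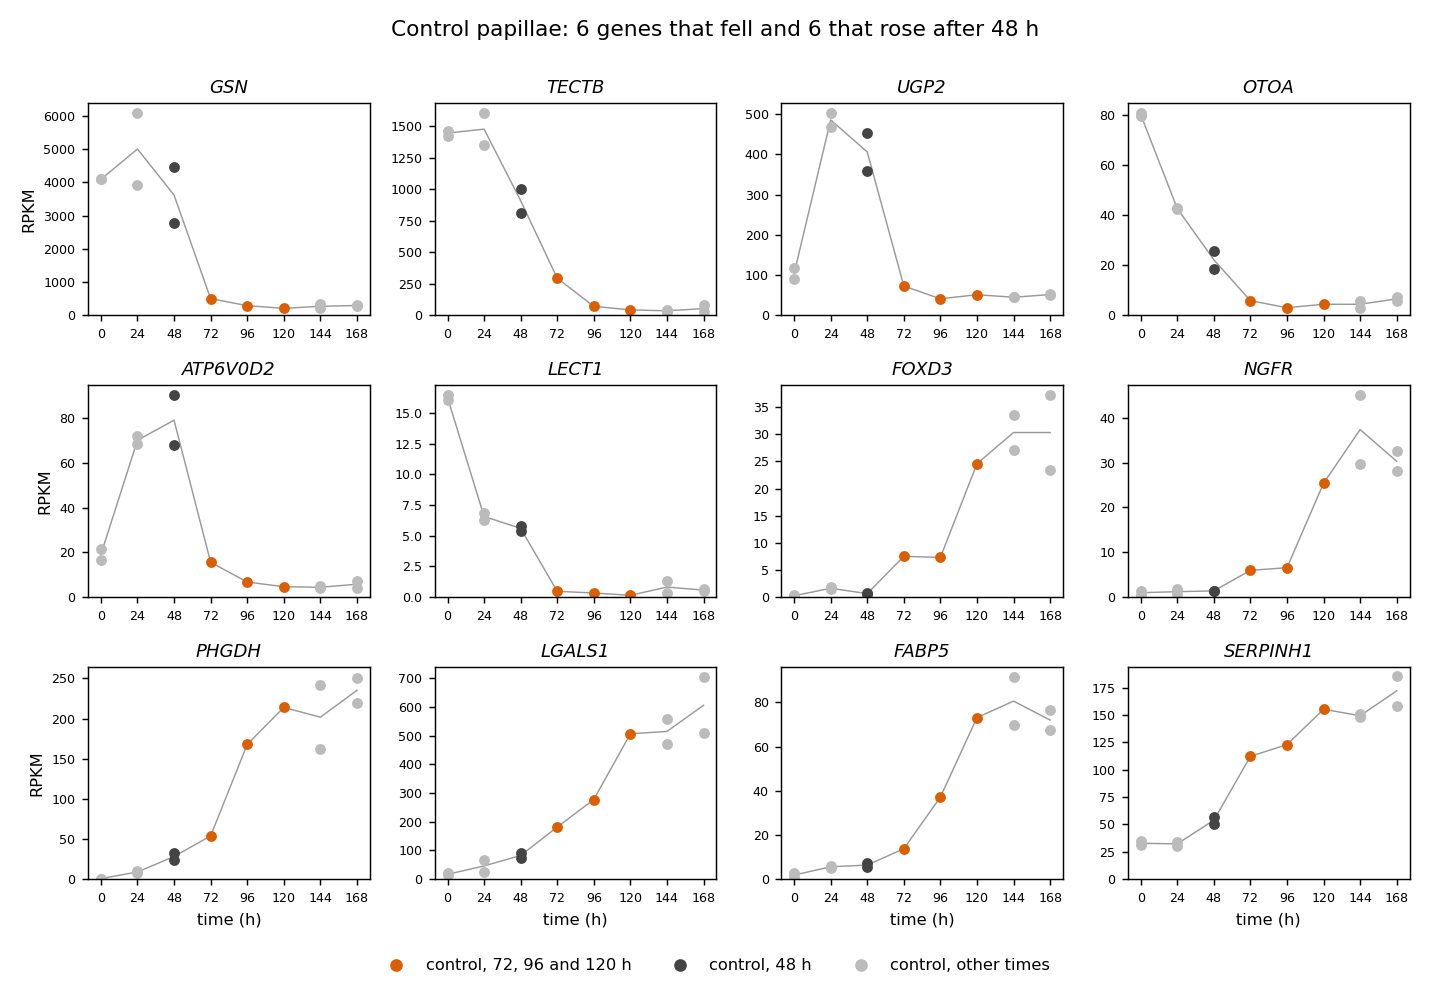
RPKM (linear axis) in each control library against time in hours for 6 genes that fell (GSN, TECTB, UGP2, OTOA, ATP6V0D2 and LECT1) and 6 that rose (FOXD3, NGFR, PHGDH, LGALS1, FABP5 and SERPINH1) after 48 h. Points are single libraries and lines join the means of each time, with the compared times marked. UGP2 and ATP6V0D2 are high at 24 and 48 h only, whereas TECTB and OTOA are highest at 0 and 24 h.

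Among other falling genes, UGP2, ATP6V0D2, SKA3 and LOC419112 were high at 24 and 48 h and lower both before and after. UGP2, the enzyme that makes UDP-glucose, stood at 72.5, 40.7 and 50.9 RPKM at 72, 96 and 120 h, against 359 and 454 RPKM at 48 h (-2.9 ± 0.21, adjusted p = 5.14e-05). It had stood at 89.4 and 118 RPKM at 0 h and 468 and 504 RPKM at 24 h, and stood at 44.1 to 52.5 RPKM at 144 to 168 h. ATP6V0D2, a subunit of the vacuolar proton pump, stood at 15.6, 6.79 and 4.68 RPKM at 72, 96 and 120 h, against 67.9 and 90.4 RPKM at 48 h (-3.14 ± 0.35, adjusted p = 0.000893). It had been 16.6 and 21.7 RPKM at 0 h and 68.6 and 71.9 RPKM at 24 h. For both genes the later libraries lay well below the 48 h libraries, and below the 0 h level. EPB41L4A, a gene of the band 4.1 family of cytoskeletal linkers, was at 5.28, 4.003 and 5.4 RPKM at 72 to 120 h against 19.3 and 24.3 RPKM at 48 h (-1.95 ± 0.16, adjusted p = 0.000102). FABP3, a fatty acid carrier gene, was at 60.9, 58.2 and 45 RPKM at 72 to 120 h against 184 and 222 RPKM at 48 h (-1.88 ± 0.18, adjusted p = 0.000329). Levels of EPB41L4A and FABP3 at 0 and 24 h are not given here. UGP2, ATP6V0D2, EPB41L4A and FABP3 held in every fit. SKA3, which encodes a kinetochore protein, was at 5.23, 2.6 and 2.32 RPKM at 72 to 120 h against 14.7 and 16 RPKM at 48 h (-1.96 ± 0.30, adjusted p = 0.00339). It had been 1.84 and 2.25 RPKM at 0 h and 17.5 and 36.2 RPKM at 24 h. Its call was lost without sample 2 of 48 h (adjusted p = 0.0561). The largest fall of all tested features was LOC419112, an uncharacterised locus chosen after its values were seen. It stood at 6.33, 2.64 and 1.95 RPKM at 72, 96 and 120 h, against 82.3 and 97.4 RPKM at 48 h, after 0.522 and 3.19 RPKM at 0 h and 71.3 and 138 RPKM at 24 h (-4.4 ± 0.43, adjusted p = 0.000329), and it held in every fit.

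Other named falls covered secreted and membrane proteins. CCK, the cholecystokinin gene, stood at 36.2, 9.78 and 5.54 RPKM at 72, 96 and 120 h, against 84 and 96 RPKM at 48 h (-2.72 ± 0.61, adjusted p = 0.0181). IGJ, the joining chain of secreted antibodies, stood at 1.51, 0.911 and 0.361 RPKM at 72 to 120 h against 9.2 and 11.1 RPKM at 48 h (-2.57 ± 0.27, adjusted p = 0.000588). LECT1 encodes chondromodulin, an inhibitor of vessel growth made by cartilage, and stood at 0.478, 0.341 and 0.152 RPKM at 72 to 120 h against 5.77 and 5.43 RPKM at 48 h (-2.32 ± 0.22, adjusted p = 0.000329). ATP12A, a proton and potassium exchanging ATPase, stood at 2.11, 0.876 and 1.14 RPKM at 72 to 120 h against 6.96 and 10.01 RPKM at 48 h (-2.01 ± 0.23, adjusted p = 0.000893). In all 4 genes every later library was below both 48 h libraries, as the choice of genes required, and the last 3 held in every fit. MYLK2 (-1.94 ± 0.36), a myosin light chain kinase, USP40 (-1.9 ± 0.34), a deubiquitinase, and DYSFIP1 (-1.94 ± 0.48), listed as PPP1R27 in the RefSeq gene table and a regulatory subunit of protein phosphatase 1, fell with adjusted p of 0.00804, 0.00711 and 0.0264. C-16, a galectin gene, fell, with 268, 96.9 and 85.8 RPKM at 72 to 120 h against 453 and 577 RPKM at 48 h (-1.96 ± 0.44, adjusted p = 0.0189). LGALS1, another galectin gene, rose. The RefSeq gene table gives LGALS1 as a synonym of both galectin-1 genes. How reads were assigned between these similar copies was not tested.

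FOXD3 and NGFR were among the 15 largest rises of genes with a symbol. FOXD3, a transcription factor of neural crest cells and glial precursors, stood at 7.53, 7.32 and 24.6 RPKM at 72, 96 and 120 h, against 0.694 and 0.614 RPKM at 48 h (2.88 ± 0.38, adjusted p = 0.00171). No library overlapped, as the choice of genes required, and the call held in every fit. FOXD3 had been 0.21 and 0.314 RPKM at 0 h and 1.45 and 1.84 RPKM at 24 h and reached 23.5 to 37.2 RPKM at 144 to 168 h. NGFR, the p75 neurotrophin receptor of immature and non-myelinating Schwann cells, stood at 5.98, 6.58 and 25.4 RPKM at 72, 96 and 120 h, against 1.4 and 1.41 RPKM at 48 h (2.22 ± 0.46, adjusted p = 0.0137). Its 120 h value stood far above those at 72 and 96 h. CDH19, a cadherin of the same lineage with a smaller rise, stood at 1.4, 2.42 and 4.99 RPKM at 72 to 120 h against 0.303 and 0.473 RPKM at 48 h (1.4 ± 0.34, adjusted p = 0.0237). NGFR lost its call when either 48 h library was left out. CDH19 lost its call when either 48 h library, the 96 h library or the 120 h library was left out. It also lost it with no filter and with only the samples compared in the fit. The list of glia markers to which all 3 belong also held falls, given with the other tissue markers.

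PHGDH, the first enzyme of serine synthesis, stood at 53.9, 168 and 214 RPKM at 72, 96 and 120 h, against 24.4 and 32.2 RPKM at 48 h, and the mean rose 5.13-fold (2.12 ± 0.42, adjusted p = 0.0113). It had been at 0.656 and 0.865 RPKM at 0 h and 7.88 and 10.2 RPKM at 24 h, so it was higher at each successive time up to 120 h. FABP5, a fatty acid carrier, stood at 13.8, 37.1 and 73.1 RPKM at 72, 96 and 120 h, against 7.24 and 5.6 RPKM at 48 h (2.23 ± 0.49, adjusted p = 0.0166). LGALS1 stood at 182, 277 and 506 RPKM at 72 to 120 h against 92 and 72.9 RPKM at 48 h (1.83 ± 0.41, adjusted p = 0.0176). In all 3 the order was 72, 96 and then 120 h, all above 48 h. The matrix genes VCAN (versican, 1.72 ± 0.38) and SPON2 (spondin 2, 2.25 ± 0.50), the protease inhibitor gene TFPI2 (1.93 ± 0.44), the adaptor gene SLA (1.89 ± 0.47), the orphan nuclear receptor gene NR4A2 (1.79 ± 0.51), the surface glycoprotein gene CD200 (1.74 ± 0.45) and the adenosine receptor gene ADORA2B (1.58 ± 0.40) rose too. Their adjusted p ran from 0.0172 to 0.0459. LOC769726, an uncharacterised locus chosen after its values were seen, rose most of all tested features, with 52, 156 and 174 RPKM at 72, 96 and 120 h, against 12.8 and 6.94 RPKM at 48 h (3.44 ± 0.41, adjusted p = 0.000893), and held in every fit.

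Most hair cell genes did not pass the test. Among genes of hair cell function 0 rose and 1 fell of 45 tested, against 2.69% and 6.49% of all features, and the list median was -0.45, with 0.18, -0.59 and -0.90 at 72, 96 and 120 h. The list sum was 1706, 909 and 670 RPKM at 72, 96 and 120 h, against 1626 and 1253 RPKM at 48 h. Differences were negative for 42 members and positive for 3. At an unadjusted p under 0.05, 0 were higher and 8 lower, where 3155 of all 11973 features passed in either direction. KCNAB1, a potassium channel subunit gene, was the member that fell, with 23.3, 11.2 and 8.48 RPKM at 72, 96 and 120 h, against 34.5 and 32.5 RPKM at 48 h (-1.29 ± 0.33, adjusted p = 0.0317), and it lost its call when a 48 h library was left out (adjusted p up to 0.177). OTOF, which encodes the otoferlin needed for vesicle release, stood at 117, 48 and 34.2 RPKM at 72, 96 and 120 h, against 99.5 and 86.3 RPKM at 48 h (-0.67 ± 0.38, adjusted p = 0.285). OCM2, a calcium-binding protein gene with similar copies that make the source of its reads uncertain, stood at 699.7, 301 and 210.5 RPKM at 72, 96 and 120 h, against 603 and 416 RPKM at 48 h (-0.499 ± 0.38, adjusted p = 0.431). MYO7A, a stereocilia motor, stood at 32.5, 19.2 and 14.4 RPKM at 72 to 120 h against 29.2 and 22.5 RPKM at 48 h (-0.29 ± 0.25, adjusted p = 0.498). For all 3 the 72 h library was above both 48 h libraries, and the 96 and 120 h libraries were below both. Without the 72 h library 23 of the 45 fell and 0 rose, where 8.85% of all features fell and 6.31% rose. Without the 96 h or the 120 h library the count of falls was 0. The fit with 1 mean per time and treatment over all 28 samples called 9 of 45 lower, against 7.53% of all features. In that fit each of 72, 96 and 120 h has its own mean, so the spread between these control libraries does not count as error.

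**Figure D2:**
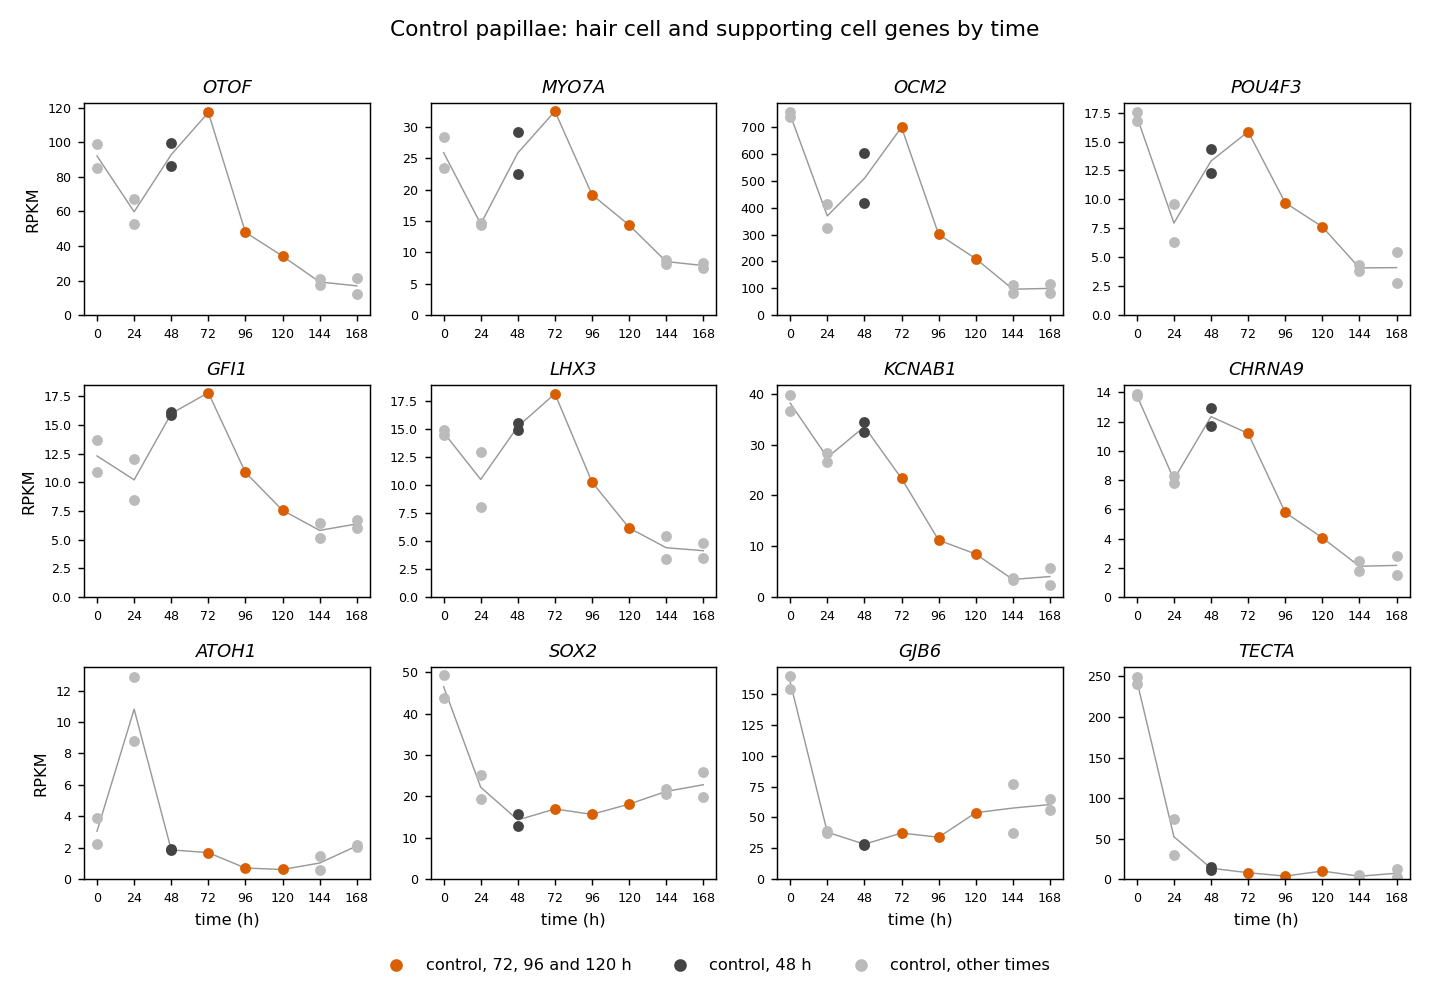
RPKM (linear axis) in each control library against time in hours for 12 hair cell and supporting cell genes, with points for single libraries and lines through the mean of each time. OTOF, MYO7A, OCM2, POU4F3, GFI1 and LHX3 are above or near their 48 h values at 72 h and below them at 96 and 120 h, while SOX2 and GJB6 are not.

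Among transcription factors and signals of forming hair cells 0 rose and 0 fell of 9 tested, against 2.69% and 6.49% of all features. The list median was -0.41 (0.15, -0.41 and -0.73 at 72, 96 and 120 h), and all 9 had a negative difference. At an unadjusted limma p under 0.05, 0 were higher and 1 lower. ATOH1, which starts hair cell formation, stood at 1.69, 0.71 and 0.619 RPKM at 72 to 120 h against 1.83 and 1.91 RPKM at 48 h (adjusted p = 0.221). POU4F3 stood at 15.9, 9.71 and 7.64 RPKM at 72 to 120 h against 14.3 and 12.3 RPKM at 48 h (adjusted p = 0.528). GFI1 was at 17.8, 10.9 and 7.56 RPKM at 72 to 120 h against 15.8 and 16.1 RPKM at 48 h (adjusted p = 0.295). LHX3 was at 18.1, 10.3 and 6.17 RPKM at 72 to 120 h against 15.5 and 14.9 RPKM at 48 h (adjusted p = 0.372). All 3 are factors of differentiating hair cells. As in the function list, the 72 h values of the last 3 factors sat above both 48 h values, and those at 96 and 120 h below both. In bulk tissue, fewer cells of a type and less RNA per cell cannot be told apart.

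In the supporting cell and tectorial membrane list 1 rose and 3 fell of 21 tested (against 2.69% higher and 6.49% lower of all features), with a median of -0.056. TECTB and OTOA fell, as did LGR5, a Wnt co-receptor of supporting cells, which stood at 3.35, 2.43 and 3.15 RPKM at 72 to 120 h against 7.27 and 7.15 RPKM at 48 h (-1.05 ± 0.17, adjusted p = 0.00473). LFNG, a glycosyltransferase that modifies Notch, rose, with 19.4, 15.9 and 27.2 RPKM at 72 to 120 h against 10.7 and 10.1 RPKM at 48 h (0.904 ± 0.20, adjusted p = 0.0188). The list sum was 481 to 735 RPKM at 72 to 120 h, against 1231 and 1418 RPKM at 48 h. TECTB made up most of the sum at 48 h and less than the rest of the list together at 72, 96 and 120 h. Without either 48 h library the list had 0 rises and 1 fall. SOX2, a transcription factor of supporting cells, stood at 17, 15.7 and 18.2 RPKM at 72 to 120 h against 15.7 and 12.9 RPKM at 48 h (adjusted p = 0.377) and did not pass. TECTA, the other tectorin gene, stood at 8.01, 3.86 and 10.1 RPKM at 72 to 120 h against 11.8 and 15.4 RPKM at 48 h (adjusted p = 0.317), with all 3 later libraries below both at 48 h. In the Notch list 1 rose and 1 fell of 17 tested, namely LFNG and HEY1, a Notch target that stood at 191, 135 and 123 RPKM at 72 to 120 h against 285 and 311 RPKM at 48 h (-1.01 ± 0.21, adjusted p = 0.0149).

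Several genes of glycolysis and the hypoxia response were lower after 48 h, as 1 rose and 13 fell of 48 tested (27.1% lower, against 6.49% of all features), with a median of -0.37. NDRG1, a hypoxia-induced gene, stood at 463, 327 and 316 RPKM at 72, 96 and 120 h, against 937 and 834 RPKM at 48 h (-1.28 ± 0.21, adjusted p = 0.00473). BNIP3L, a mitophagy receptor gene, stood at 90.2, 82.7 and 80.5 RPKM at 72 to 120 h against 194 and 204 RPKM at 48 h (-1.23 ± 0.24, adjusted p = 0.0098). HK2, a hexokinase gene, stood at 95.3, 74.9 and 54.5 RPKM at 72 to 120 h against 158 and 178 RPKM at 48 h (-1.19 ± 0.21, adjusted p = 0.00608). VEGFA, the vessel growth factor gene, stood at 53.9, 59.2 and 62 RPKM at 72 to 120 h against 101 and 109 RPKM at 48 h (-0.84 ± 0.12, adjusted p = 0.00266). In all 4 the later libraries lay below both 48 h libraries without overlap. The other falls were TPI1, PGK1, PDK3, PFKFB3, EGLN3, KDM3A, MXI1, HIF1A and BHLHE40, and PLOD1, a collagen lysyl hydroxylase gene, rose. LDHA, the lactate dehydrogenase gene, stood at 1191, 1166 and 1426 RPKM at 72 to 120 h against 1872 and 1946 RPKM at 48 h and did not pass (-0.604 ± 0.18, adjusted p = 0.0525). NDRG1 had been 248 and 341 RPKM at 0 h and 1507 and 1533 RPKM at 24 h. VEGFA had been 31.1 and 32.1 RPKM at 0 h and 124 and 131 RPKM at 24 h. Both were higher at 24 h than at 48 h. The count of falls was 4 without sample 1 and 1 without sample 2 of 48 h, and 8 without the 96 h library.

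Clock genes included several falls, as 0 rose and 6 fell of 19 tested (31.6% lower, against 6.49% of all features), with a median of -0.32 and 18 of 19 members below 0. CRY1, a repressor of the clock, stood at 44.6, 41.5 and 43.2 RPKM at 72, 96 and 120 h, against 80.7 and 85.2 RPKM at 48 h (-0.93 ± 0.11, adjusted p = 0.000893) and held in every fit. PER3, its partner, stood at 14.6, 14 and 13 RPKM at 72 to 120 h against 27.6 and 26.3 RPKM at 48 h (-0.91 ± 0.14, adjusted p = 0.00368). NR1D2, a nuclear receptor of the clock, stood at 35.3, 22.4 and 24 RPKM at 72 to 120 h against 56.1 and 44.4 RPKM at 48 h (-0.88 ± 0.18, adjusted p = 0.0122). The falls also included RORA and BHLHE40, and BHLHE40 stands in both this list and the hypoxia list. CRY1, PER3 and NR1D2 were lower in each later library. The labels give sampling times in multiples of 24 h and no clock hour, so the phase of sampling is not known. The count of falls was 1 without either 48 h library and 2 or 3 without the 96 or the 120 h library.

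**Figure D3:**
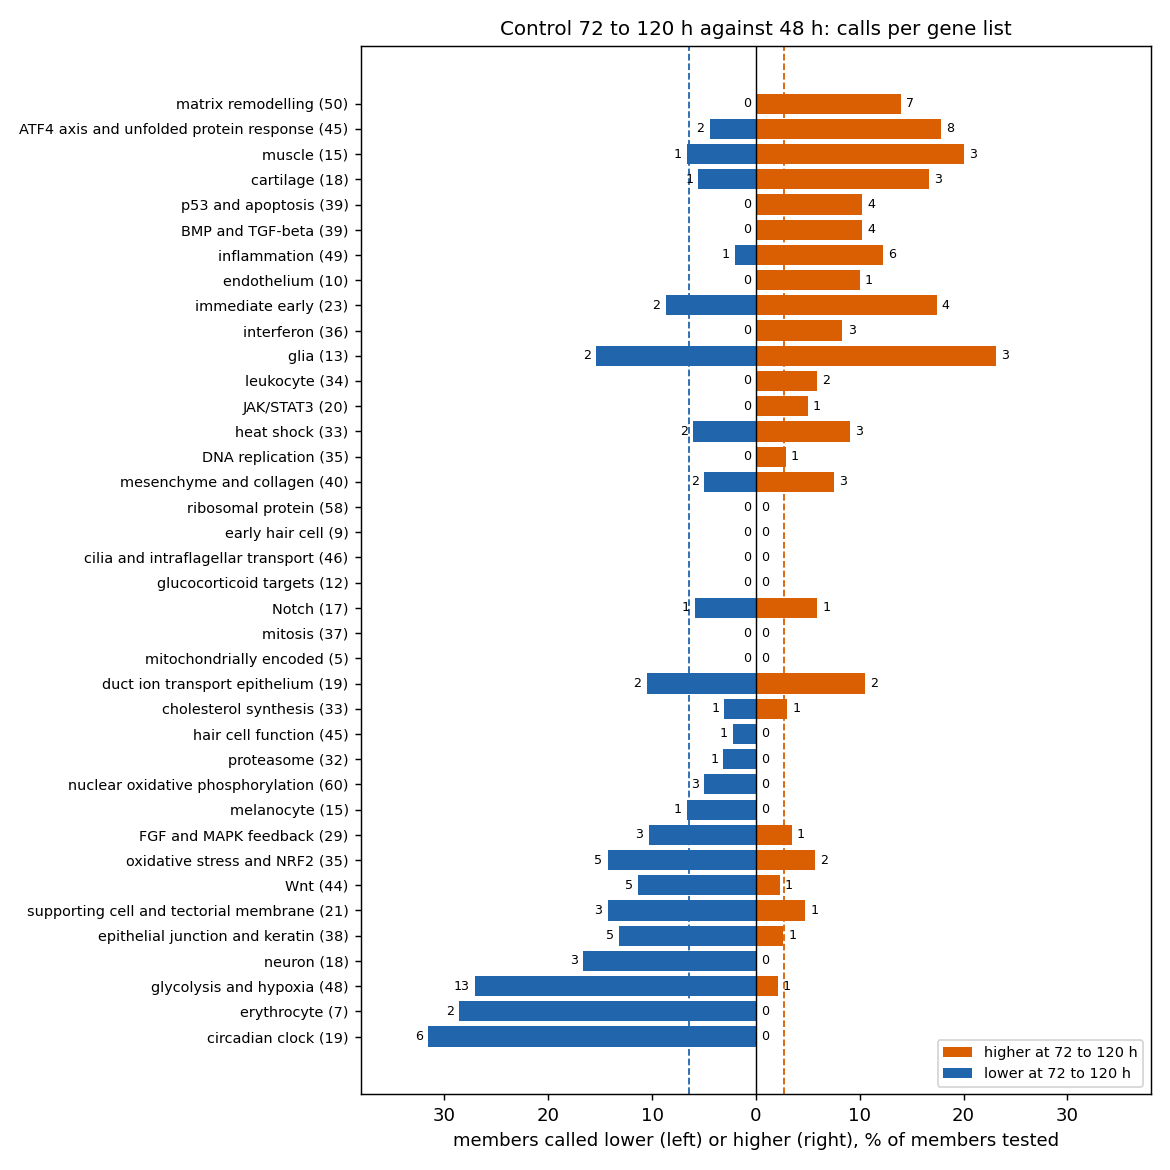
Share of members (percent of those tested) called higher or lower at 72 to 120 h than at 48 h for gene lists with at least 5 members tested. Dashed lines mark the shares over all features, 2.69% higher and 6.49% lower. Circadian clock (31.6%), erythrocyte (28.6%, from 7 members) and glycolysis and hypoxia (27.1%) have the longest bars to the lower side.

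Several chaperone genes of the endoplasmic reticulum rose, while the stress regulator genes ATF4 and CEBPG fell. In the ATF4 and unfolded protein response list 8 rose and 2 fell of 45 tested (against 2.69% higher and 6.49% lower of all features), with a median of 0.26 and -0.063, 0.36 and 0.54 at 72, 96 and 120 h. ATF4, the transcription factor of the integrated stress response, stood at 253, 208 and 221 RPKM at 72, 96 and 120 h, against 487 and 505 RPKM at 48 h (-1.13 ± 0.16, adjusted p = 0.00203) and held in every fit. CEBPG, its partner, was the other fall. HSPA5, the main chaperone of the endoplasmic reticulum, stood at 461, 828 and 603 RPKM at 72 to 120 h against 339 and 302 RPKM at 48 h (0.94 ± 0.22, adjusted p = 0.0211). It rose with SDF2L1, MANF, PDIA3, PDIA4 and PDIA6, which also act in folding there. PHGDH and PSAT1 (1.06 ± 0.31, adjusted p = 0.0489), both of serine synthesis, were the remaining rises, and PSAT1 lost its call in 10 of the 14 alternatives. ASNS, the asparagine synthetase gene, stood at 89.1, 130.2 and 164 RPKM at 72 to 120 h against 147 and 125 RPKM at 48 h and did not pass (adjusted p = 0.739), and only the 120 h library lay above both 48 h libraries. The rises numbered 2 without the 96 or the 120 h library. They numbered 17 without the 72 h library, where 6.31% of all features rose. In a fit of all 28 samples with 1 mean per treatment and window they numbered 0.

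Of heat shock genes 3 rose and 2 fell of 33 tested, where 2.69% of all features rose and 6.49% fell. SERPINH1, the collagen chaperone, stood at 112, 123 and 155 RPKM at 72, 96 and 120 h, against 57 and 50.8 RPKM at 48 h (1.25 ± 0.15, adjusted p = 0.000893) and held in every fit. HSPD1, a mitochondrial chaperone (0.7997 ± 0.22), and HSPA8 rose too. BAG2, a co-chaperone, stood at 83.4, 57.3 and 53 RPKM at 72 to 120 h against 153 and 166 RPKM at 48 h (-1.32 ± 0.19, adjusted p = 0.00294), and it and HSF2 fell. Among immediate early genes 4 rose and 2 fell of 23 tested, the rises being NR4A2, KLF2, BTG2 and CTGF. KLF2 stood at 15.2, 26.7 and 28 RPKM at 72 to 120 h against 8.09 and 7.06 RPKM at 48 h (1.46 ± 0.23, adjusted p = 0.0038). MAFF, a small Maf factor of stress, fell, with 141, 89.7 and 60.3 RPKM at 72 to 120 h against 293 and 306 RPKM at 48 h (-1.7 ± 0.27, adjusted p = 0.00465). HBEGF, a ligand of the EGF receptor, fell too (-1.17 ± 0.25, adjusted p = 0.0146). EGR1 stood at 14.6, 40.1 and 37.4 RPKM at 72 to 120 h against 18.7 and 16.2 RPKM at 48 h and did not pass (adjusted p = 0.34). In the oxidative stress list 2 rose and 5 fell of 35 tested. HMOX1, heme oxygenase, was at 21.5, 26.2 and 25.6 RPKM at 72 to 120 h against 10.6 and 11.5 RPKM at 48 h (1.08 ± 0.20, adjusted p = 0.00862). GPX7, a peroxidase of the endoplasmic reticulum, rose as well (1.12 ± 0.22). NQO2 (-0.95 ± 0.19), FTL (-0.88 ± 0.17), which encodes ferritin light chain, PRDX3, TALDO1 and TKT fell. Without sample 2 of 48 h the heat shock list had 1 rise and 0 falls. The immediate early and oxidative stress lists then had 0 rises and 0 falls. Without sample 1 the heat shock and immediate early lists each had 1 rise and 1 fall, and the oxidative stress list 0 rises and 1 fall.

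Several genes that remodel matrix rose. In the matrix remodelling list 7 rose and 0 fell of 50 tested (14%, against 2.69% of all features), with a median of 0.39. The collagenase gene MMP1 stood at 6.29, 9.44 and 3.17 RPKM at 72, 96 and 120 h, against 1.62 and 1.35 RPKM at 48 h (1.46 ± 0.31, adjusted p = 0.0151). The protease inhibitor gene TIMP4 stood at 6.18, 7.36 and 8.1 RPKM at 72 to 120 h against 3.15 and 1.79 RPKM at 48 h (1.27 ± 0.31, adjusted p = 0.0272). MMP2, ADAM9, ADAM12, ADAM17 and ITGB3 were the other rises. At an unadjusted p under 0.05 there were 17 higher and 1 lower, where 3155 of all 11973 features passed in either direction. SPP1, the osteopontin gene, stood at 1049, 809 and 506 RPKM at 72 to 120 h against 428 and 257 RPKM at 48 h, above both 48 h libraries in all 3 yet not past the test (adjusted p = 0.11). Without either 48 h library the count of rises was 0, and it was 1 without the 96 h and 3 without the 120 h library.

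In the mesenchyme and collagen list 3 rose and 2 fell of 40 tested, where 2.69% of all features rose and 6.49% fell. FBLN1, fibulin, stood at 46.9, 43.6 and 46.4 RPKM at 72 to 120 h against 24.1 and 19.9 RPKM at 48 h (1.03 ± 0.27, adjusted p = 0.0357), and COL5A1 and PRRX2 were the other rises. ASPN, asporin of the small leucine-rich proteoglycans, stood at 1.73, 1.04 and 0.834 RPKM at 72, 96 and 120 h, against 11.7 and 7.86 RPKM at 48 h (-2.29 ± 0.29, adjusted p = 0.00139) and held in every fit. COL14A1, a fibril-associated collagen gene, fell with it (12.4, 8.81 and 11.4 RPKM at 72 to 120 h against 24.1 and 27.8 RPKM at 48 h, -1.19 ± 0.22). COL1A1 stood at 151, 79.2 and 79.9 RPKM at 72 to 120 h against 68.4 and 66.7 RPKM at 48 h (adjusted p = 0.456), with the 72 h library well above the rest. For cartilage 3 rose and 1 fell of 18 tested. The secreted factor gene CYTL1 stood at 66.8, 45.3 and 54.5 RPKM at 72 to 120 h against 16 and 19.8 RPKM at 48 h (1.57 ± 0.24, adjusted p = 0.00361). The matrix gene CHAD stood at 5.06, 11.3 and 9.56 RPKM at 72 to 120 h against 1.85 and 2.08 RPKM at 48 h (1.64 ± 0.30, adjusted p = 0.00788). CILP, also of cartilage matrix, stood at 3.05, 3.53 and 3.63 RPKM at 72 to 120 h against 1.38 and 0.919 RPKM at 48 h (1.04 ± 0.21), while LECT1 fell. The muscle list held 3 rises and 1 fall among 15 tested, where the actin and tropomyosin genes ACTA2 (1.43 ± 0.35) and TPM2 (0.67 ± 0.18) and CALD1 rose and GSN fell. Of its 30 members in the table, 17 stayed under 1 RPKM in all 5 libraries, among them DES, MYH11 and TTN. Muscle rises numbered 2 without the 96 h library and 0 without the 120 h library. They also numbered 0 with only the samples compared in the fit. Mesenchyme rises numbered 1 without the 96 h and 0 without the 120 h library, whereas cartilage rises stayed at 3. Over all features 0.76% and 0.752% rose in these 2 fits. Of the 9 alternatives that left out no library, TPM2 kept its call in 4 and FBLN1 in 6.

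Markers of nerve and glia went in different directions. Of neuron markers 0 rose and 3 fell of 18 tested, where 2.69% of all features rose and 6.49% fell. Differences were positive for 8 members and negative for 10, with a median of -0.11. GAP43, a protein of growing axons, stood at 88, 52.2 and 51.7 RPKM at 72, 96 and 120 h, against 138 and 189 RPKM at 48 h (-1.37 ± 0.21, adjusted p = 0.00368). NRSN1 (-1.002 ± 0.29) and NSG1 (-0.88 ± 0.14) fell too. NEFM, a neurofilament gene, stood at 17.3, 6.5 and 3.9 RPKM at 72 to 120 h against 16.5 and 13 RPKM at 48 h and did not pass (adjusted p = 0.181), and its 72 h value lay above both 48 h values. Of glia markers 3 rose and 2 fell of 13 tested, and the list sum was 221 to 275 RPKM at 72 to 120 h, against 190.3 and 208 RPKM at 48 h. FOXD3, NGFR and CDH19 were the rises. MBP, a myelin protein gene, stood at 4.27, 2.84 and 3.36 RPKM at 72 to 120 h against 7.14 and 7.87 RPKM at 48 h (-0.93 ± 0.16, adjusted p = 0.00649) and fell with PMP22, another. The myelin gene MAL was under 1 RPKM in all 5 libraries. In the melanocyte list 0 rose and 1 fell of 15 tested, the fall being SLC24A4 (-0.98 ± 0.23), and TYR, DCT and MLANA were under 1 RPKM throughout. The list as a whole did not fall, as 12 of the 15 had a positive difference and the median was 0.31. At an unadjusted limma p under 0.05, 3 were higher and 2 lower.

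Leukocyte markers had mostly positive differences, of which few passed. Of leukocyte markers 2 rose and 0 fell of 34 tested (against 2.69% higher of all features), but 32 of 34 had a positive difference and the median was 0.72, with 0.34, 0.66 and 1.16 at 72, 96 and 120 h. At an unadjusted p under 0.05, 21 were higher and 0 lower, where 3155 of all 11973 features passed in either direction. The list sum was 318 to 531 RPKM at 72 to 120 h, against 256 and 261 RPKM at 48 h, and 486 to 622 RPKM at 144 to 168 h. C1QA, a complement gene of macrophages, stood at 4.61, 6.98 and 7.49 RPKM at 72 to 120 h against 2.74 and 2.39 RPKM at 48 h (1.02 ± 0.28, adjusted p = 0.0409). B-MA2, a class II histocompatibility gene, was the other rise. CTSS, cathepsin S, was at 46.4, 82.6 and 85.2 RPKM at 72 to 120 h against 32.8 and 35.8 RPKM at 48 h (adjusted p = 0.0672). CD74, of antigen presentation, was at 61, 82.6 and 73.3 RPKM at 72 to 120 h against 35.1 and 59.9 RPKM at 48 h (adjusted p = 0.188). Neither passed. CD4, CD8A and CD28 of T cells were under 1 RPKM in all 5 libraries. Without the 72 h library 17 of the 34 rose, where 6.31% of all features rose. Without the 96 h or the 120 h library the count was 0. The count of rises was 0 with a pseudocount of 0.1. It was 11 in the fit with 1 mean per time and treatment, where 4.03% of all features rose. That fit does not count the spread between 72, 96 and 120 h as error.

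Among inflammation genes 6 rose and 1 fell of 49 tested (12.2% higher, against 2.69% of all features), with a median of 0.49. The complement gene C3 stood at 11.4, 16.6 and 24 RPKM at 72, 96 and 120 h, against 6.5 and 4.76 RPKM at 48 h (1.42 ± 0.32, adjusted p = 0.0191). The cytokine gene IL18 stood at 5.71, 11.4 and 18.3 RPKM at 72 to 120 h against 3.92 and 3.2 RPKM at 48 h (1.37 ± 0.35, adjusted p = 0.031). The chemokine gene CCL4 stood at 19.9, 16.4 and 19.6 RPKM at 72 to 120 h against 9.24 and 5.56 RPKM at 48 h (1.25 ± 0.21, adjusted p = 0.00542). TLR2-1, TNFSF10 and TNFSF15 rose as well, and PTGS2, a prostaglandin synthase gene, fell. All later values of the 3 given were above both 48 h values. The rises numbered 1 without sample 1 and 0 without sample 2 of 48 h, and 3 and 2 without the 96 and the 120 h library. In the interferon list 3 rose and 0 fell of 36 tested (8.33% higher, against 2.69% of all features), with 33 of 36 members above 0 and a median of 0.36. The interferon rises numbered 1 without the 96 h or the 120 h library, and were also fewer without either 48 h library. They numbered 9 without the 72 h library, where 6.31% of all features rose. In the fit with 1 mean per time and treatment, where the spread between 72, 96 and 120 h does not count as error, 9 rose. Over all features 4.03% rose in it. IRF1, an interferon-induced transcription factor, stood at 20.1, 13.8 and 12.8 RPKM at 72 to 120 h against 8.63 and 6.23 RPKM at 48 h (0.97 ± 0.20, adjusted p = 0.0142), highest at 72 h, and PARP14 (0.81 ± 0.20) and DTX3L rose too. The JAK/STAT3 list gave 1 rise and 0 falls among 20 tested, the rise being the feedback inhibitor SOCS2 (1.05 ± 0.27, adjusted p = 0.0321).

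**Figure D4:**
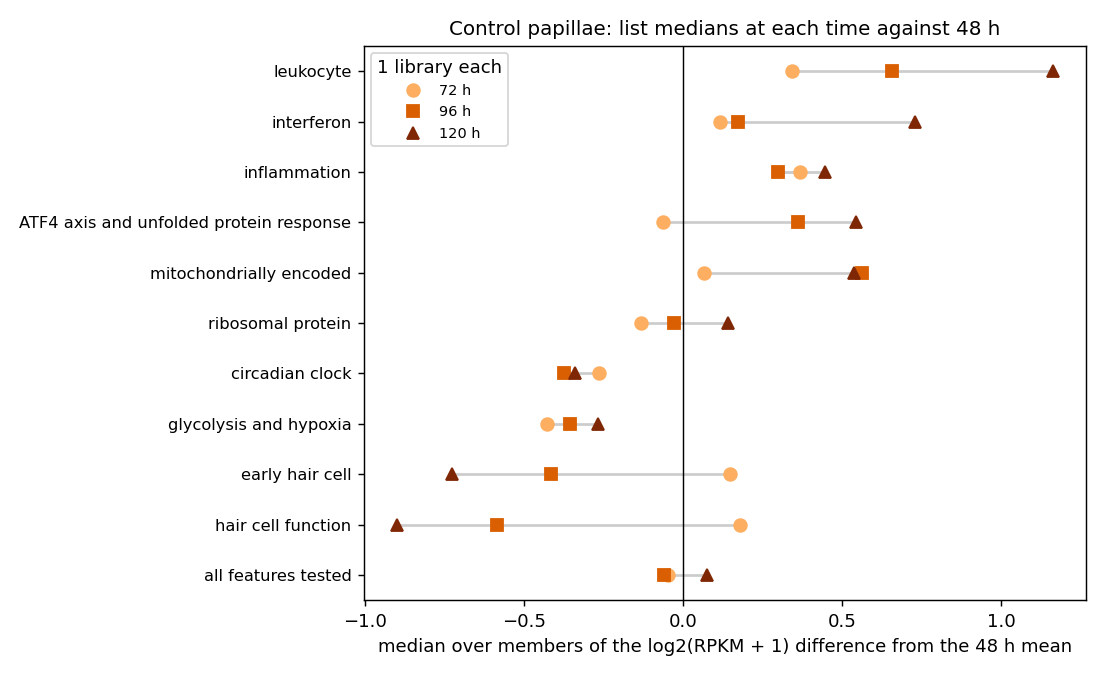
Median log2(RPKM + 1) difference from the 48 h mean over the members of 10 gene lists and over all features, at 72, 96 and 120 h in control papillae. Leukocyte markers stand at 0.34, 0.66 and 1.16 and hair cell function genes at 0.18, -0.59 and -0.90, while all features stay between -0.06 and 0.08.

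Few cell cycle genes passed the test. Among DNA replication genes 1 rose and 0 fell of 35 tested, the rise being GINS3 (0.48 ± 0.14, adjusted p = 0.0465), a subunit of the replicative helicase complex, and the median was 0.044. MCM5, of the helicase ring, stood at 8.63, 6.46 and 7.61 RPKM at 72 to 120 h against 7.55 and 6.55 RPKM at 48 h (adjusted p = 0.805). Mitosis genes gave 0 rises and 0 falls among 37 tested, with a median of -0.021 and 0 higher and 1 lower at an unadjusted p under 0.05. CDK1, the mitotic kinase, stood at 12.3, 11.1 and 10.7 RPKM at 72 to 120 h against 12.6 and 15 RPKM at 48 h (adjusted p = 0.56), with all later values below both 48 h values. In the p53 and apoptosis list 4 rose and 0 fell of 39 tested, against 2.69% higher of all features. Without either 48 h library, the 96 h or the 120 h library the count of rises was 0. BTG2, an antiproliferative gene, stood at 41.7, 56.8 and 70.7 RPKM at 72 to 120 h against 28 and 25.3 RPKM at 48 h (1.03 ± 0.25, adjusted p = 0.0266). CCNG1, a p53 target, was at 58.6, 97.6 and 111 RPKM at 72 to 120 h against 45.1 and 42.2 RPKM at 48 h (0.96 ± 0.22). FADD, an adaptor of death receptors, was at 15.5, 21.6 and 25.7 RPKM at 72 to 120 h against 11.9 and 8.62 RPKM at 48 h (0.95 ± 0.22), and FAS, such a receptor, at 4.32, 7.49 and 7.75 RPKM at 72 to 120 h against 2.94 and 2.75 RPKM at 48 h (0.93 ± 0.25, adjusted p = 0.0384). All 4 were higher in each later library than in both 48 h libraries.

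Growth factor pathways had few calls. In the FGF list 1 rose and 3 fell of 29 tested. FGF16 stood at 0.68, 0.345 and 0 RPKM at 72 to 120 h against 2.24 and 1.3 RPKM at 48 h (-1.06 ± 0.26) and FGF18 at 1.23, 0.278 and 0.672 RPKM at 72 to 120 h against 2.53 and 2.36 RPKM at 48 h (-1.03 ± 0.24). Both fell, as did the receptor gene EGFR. FGF19 rose, with 0.62, 3.75 and 1.68 RPKM at 72 to 120 h against 0.155 and 0 RPKM at 48 h (1.35 ± 0.38, adjusted p = 0.0444). These FGF ligands stayed under 4 RPKM, where log2(RPKM + 1) compresses change. In the Wnt list 1 rose and 5 fell of 44 tested (against 2.69% higher and 6.49% lower of all features), the falls being WNT7A, LGR5, DKK3, the beta-catenin gene CTNNB1 and APC of its destruction complex (-0.94 ± 0.23), and the rise NOTUM, a Wnt deacylase. APC stood at 14.6, 8.36 and 10.7 RPKM at 72 to 120 h against 26.7 and 18 RPKM at 48 h. The Wnt falls numbered 0 without either 48 h library, 1 without the 96 h and 2 without the 120 h library. For BMP and TGF-beta 4 rose and 0 fell of 39 tested (against 2.69% higher of all features), namely SMAD3, TGFB3, TWSG1 and SERPINE2. The last, a protease inhibitor gene, stood at 147, 172 and 169 RPKM at 72 to 120 h against 109 and 96.8 RPKM at 48 h (0.66 ± 0.14, adjusted p = 0.0163). The list had 0 rises without either 48 h library and 0 in the fit of all 28 samples with 1 mean per treatment and window.

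In the junction and keratin list 1 rose and 5 fell of 38 tested, where 2.69% of all features rose and 6.49% fell. The falls numbered 2 without sample 1 and 1 without sample 2 of 48 h. CDH4, a cadherin gene, stood at 11.5, 9.98 and 12.2 RPKM at 72, 96 and 120 h, against 27.5 and 31 RPKM at 48 h (-1.31 ± 0.16, adjusted p = 0.00125) and held in every fit. The junction genes PKP4 (-0.86 ± 0.14), DSC2, CTNNA1 and CTNNB1 fell too. CLDN8, a claudin gene, rose, with 4.89, 5.18 and 7.83 RPKM at 72 to 120 h against 2.41 and 1.85 RPKM at 48 h (1.14 ± 0.30, adjusted p = 0.0363). Ion-transporting duct markers gave 2 rises and 2 falls among 19 tested. KCNQ1, a potassium channel gene, stood at 2.91, 2.58 and 2.32 RPKM at 72 to 120 h against 6.12 and 6.61 RPKM at 48 h (-1.03 ± 0.17, adjusted p = 0.00473). SCNN1A, of the epithelial sodium channel, was at 67.8, 82 and 56.4 RPKM at 72 to 120 h against 102 and 184 RPKM at 48 h (-1.003 ± 0.26). Both fell, and CLDN8 and KCNJ16 were the rises. Erythrocyte markers gave 0 rises and 2 falls among 7 tested, KLF1 (-1.22 ± 0.26) and the transferrin receptor gene TFRC. TFRC stood at 45.1, 34.2 and 38.1 RPKM at 72 to 120 h against 66.4 and 67 RPKM at 48 h (-0.76 ± 0.14), and the globin genes HBE and HBZ were at 0 in all 5 libraries. Endothelial markers gave 1 rise and 0 falls among 10 tested, the rise being the transcription factor gene ERG (0.88 ± 0.23).

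Few genes of the housekeeping groups passed, where 2.69% of all features rose and 6.49% fell. Ribosomal protein genes gave 0 rises and 0 falls among 58 tested, with 0 at an unadjusted p under 0.05 either way. The 5 mitochondrially encoded genes were all above 0 with a median of 0.39, but 0 rose and 0 fell of 5 tested in limma, with 0 at an unadjusted p under 0.05. COX3 stood at 3744, 4859 and 5181 RPKM at 72 to 120 h against 3324 and 3601 RPKM at 48 h (adjusted p = 0.256). Of nuclear oxidative phosphorylation genes 0 rose and 3 fell of 60 tested (NDUFA10, NDUFB10 and UQCR11), with a median of -0.16. That was 5% lower, against 6.49% of all features. UQCR11 kept its call in 0 of the 5 fits with a library left out and in 2 of the 9 other alternatives. Proteasome genes gave 0 rises and 1 fall among 32 tested, the fall being PSMD7 (-0.46 ± 0.12). PSMD7 kept its call in 1 of the 5 fits with a library left out and in 6 of the 9 other alternatives. Cholesterol genes gave 1 rise and 1 fall among 33 tested, namely ACLY higher and the sterol exporter gene ABCG1 lower. ABCG1 stood at 4.78, 6.16 and 7.42 RPKM at 72 to 120 h against 11.6 and 13.5 RPKM at 48 h (-0.94 ± 0.16). HMGCS1 stood at 114, 85.2 and 102 RPKM at 72 to 120 h against 90.4 and 73.8 RPKM at 48 h (adjusted p = 0.424). Cilium genes gave 0 rises and 0 falls among 46 tested and glucocorticoid targets 0 rises and 0 falls among 12 tested, with 1 higher and 8 lower, and 2 higher and 2 lower, at an unadjusted p under 0.05. Over all features 3155 of 11973 passed at that level in either direction.

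The change after 48 h was then set against that in treated papillae, as the difference of the 2 changes in 1 fit of all 28 samples. It passed for 864 of 12195 features (7.08%), of which 504 (4.13%) were higher and 360 (2.95%) lower in the treated change than in the control change. Of the 864, 486 had a negative change in controls and a positive change in treated papillae, and 343 had the opposite. The 864 were chosen by the difference of these same 2 changes, which favours opposite signs. The share of opposite signs over all 12195 features is not given, so these counts do not show that the arms moved oppositely. NDRG1 stood in treated papillae at 817 and 311 RPKM at 72 h, 487 RPKM at 96 h and 583 and 354 RPKM at 120 h, against 223 and 132 RPKM at 48 h, whereas in controls the later values were below 48 h (difference of changes 2.76 ± 0.43, limma adjusted p = 0.00159). Among the 48 glycolysis and hypoxia genes 13 had a higher treated change and 0 a lower one. ATP6V0D2 (3.58 ± 0.65, adjusted p = 0.00392), SKA3 (3.42 ± 0.50, adjusted p = 0.00119), IGJ (3.15 ± 0.33, adjusted p = 3.29e-05), PIK3R6 (2.92 ± 0.44, adjusted p = 0.00119), a regulatory subunit of phosphoinositide 3-kinase, and FABP3 (2.72 ± 0.36, adjusted p = 0.000612) were the other leading genes with a higher treated change. For FABP3 the change was 0.84 in treated and -1.88 in control papillae.

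GJB6 encodes a connexin through which supporting cells are coupled. In treated papillae it stood at 128 and 234 RPKM at 72 h, 161 RPKM at 96 h and 87.8 and 115 RPKM at 120 h, against 437 and 463 RPKM at 48 h. In controls it stood at 37.4, 34 and 53.8 RPKM at 72 to 120 h against 28.9 and 27.8 RPKM at 48 h and did not pass (adjusted p = 0.207). The difference of changes was -2.22 ± 0.44 (adjusted p = 0.00705). The water channel gene AQP5 (-2.46 ± 0.68, adjusted p = 0.0326), the cation channel gene TRPM3 (-2.25 ± 0.57, adjusted p = 0.0223), the calcineurin regulator gene RCAN1 (-2.07 ± 0.50, adjusted p = 0.019), the mitochondrial ornithine carrier gene SLC25A15 (-2.02 ± 0.31, adjusted p = 0.00119) and TIFA (-2.02 ± 0.42, adjusted p = 0.00868), an adaptor of TRAF signalling, had a lower treated change. RCAN1 rose in controls, with 37.6, 67 and 105 RPKM at 72 to 120 h against 26.6 and 25.2 RPKM at 48 h (1.28 ± 0.33, adjusted p = 0.0306). Its change was -0.796 in treated and 1.28 in control papillae. Not every gene differed between the arms. OTOA (difference -0.01 ± 0.72, adjusted p = 0.995), PHGDH (0.12 ± 0.92, adjusted p = 0.96) and SERPINH1 (-0.69 ± 0.42, adjusted p = 0.338) did not pass, which does not show that the arms were alike. The count of 864 was 79 without sample 2 and 322 without sample 1 of treated 48 h, 127 and 247 without samples 2 and 1 of control 48 h, 398 without control 120 h and 558 without control 96 h. Of the 12 leading genes, ATP6V0D2, SKA3, IGJ, PIK3R6, NDRG1, FABP3 and SLC25A15 kept their call without any single library of the 12 compared. GJB6 lost it without sample 2 of treated 48 h (adjusted p = 0.0541), TIFA without sample 2 of either 48 h group (adjusted p up to 0.0802), and AQP5, TRPM3 and RCAN1 without any of the 4 libraries at 48 h, with adjusted p up to 0.125, 0.113 and 0.0881. AQP5 also lost it without sample 1 of treated 72 h, control 96 h or control 120 h, and RCAN1 without control 120 h.

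**Figure D5:**
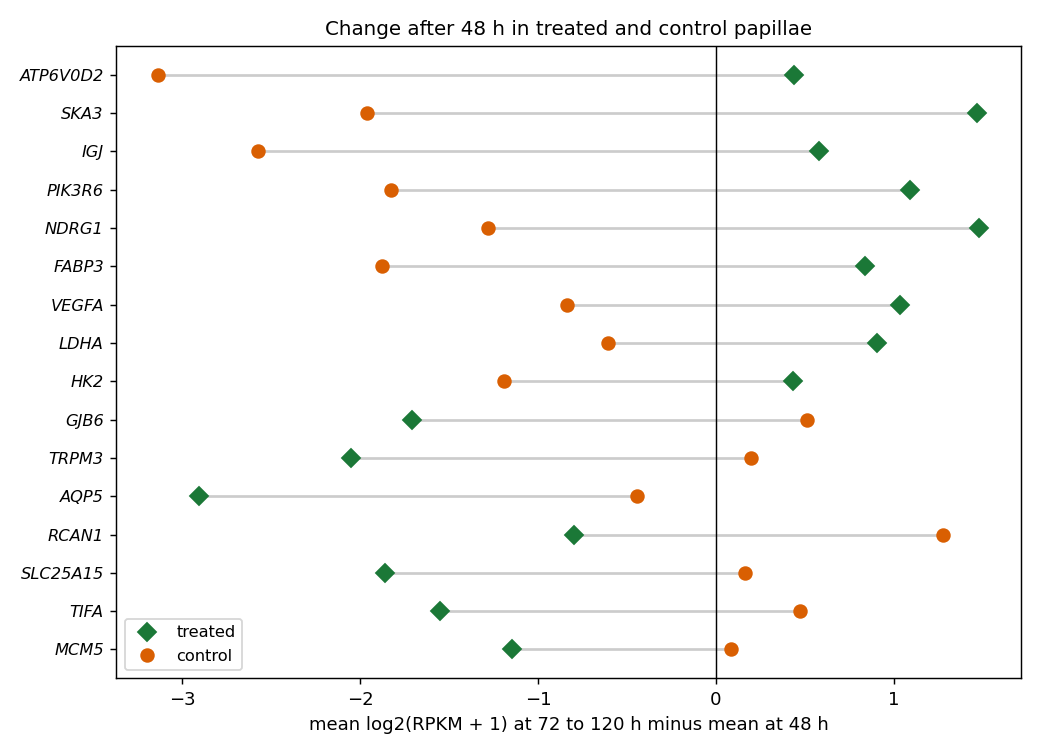
Fitted change on the log2(RPKM + 1) scale from 48 h to 72 to 120 h in treated papillae (diamonds) and control papillae (circles) for 16 genes. NDRG1 stands at 1.48 in treated and -1.28 in control papillae, and GJB6 at -1.71 in treated and 0.51 in control papillae.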

How the data were processed

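RNA sequencing of chicken basilar papillae was analysed from the table of RPKM values that the authors deposited for 17684 features. Per the submitters' processing notes the tools were TopHat 1.4.0 and Partek 6.6, without roles. Build, annotation and strand setting were not given in the sources used, and no positions are printed. Of 32 value columns, 4 matched no sample and were not used.

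Samples were grouped by the treatment and time in their titles. Features of at least 1 RPKM in at least 2 samples were kept. Linear models of log2(RPKM + 1) were fitted in limma (version 3.58.1, under R version 4.3.3) with lmFit and a trended eBayes, tests were two-sided, with Benjamini-Hochberg adjustment over all features kept. The control comparison used all 13 controls with 6 windows (0, 24, 48, 72 to 120, 144 and 168 h; 7 residual degrees of freedom), and the comparison between arms used all 28 samples in 12 groups (16 residual degrees of freedom). The spread between 72, 96 and 120 h counts as error in both.

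Members and gene lists were chosen with earlier results of these data known, and lists are described by counts and medians only. There were 38 lists, some genes standing in more than 1. Named genes were the 15 largest rises and 15 largest falls with a symbol, a mean of at least 1 RPKM in either group and no overlap between groups, up to 4 members of each list, and 6 genes per direction for the comparison between arms. LOC419112 and LOC769726 lie outside that rule. Names were matched to the RefSeq gene table of GRCg7b, in which 11126 features had their symbol. FOS was followed but matched no feature. Results for a few followed genes are not reported here. In simulated data with known changes the control comparison recovered 19.4, 77.6 and 98.5% of genes changed 1.5-, 2- and 4-fold. These data held 11931 genes, and 11 of 141 calls were false. In the measured data the times pooled in the comparison differ, and their spread counts as error. The simulation was not shown to hold that spread, so it gives no recovery or false call rate for the measured comparison.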

Additional observations from a re-analysis of the deposited data

Results flagged for a closer look

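The change from 48 h to 72 to 120 h differed between treated and control papillae for 864 features by the limma test of the difference itself (adjusted p under 0.05). Of the 129 genes followed by name, 43 were among them, and 14 of these kept their call without any single library of the 12 compared (ATP6V0D2, IGJ, SKA3, BAG2, MAFF, GAP43, TFRC, SLC24A4, NDRG1, CRY1, PIK3R6, FABP3, SLC25A15 and LOC419112). The other 29 lost it in at least 1 case. Over all 12195 features 7.08% passed. The named genes include 6 per direction that were chosen because they passed this same test. Others were chosen for large changes in controls, which enter the same difference. The larger share among named genes is therefore not a result in itself. The values that follow are treated minus control differences of the 2 changes on the log2(RPKM + 1) scale.

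The difference was positive, so that the treated change was the higher, for LOC419112 (5.70), ATP6V0D2 (3.58), SKA3 (3.42), IGJ (3.15), PIK3R6 (2.92), FABP3 (2.72), MYLK2 (2.55), GSN (2.45), EPB41L4A (1.94), BAG2 (1.80) and LECT1 (1.79). Each of these fell in controls. In the hypoxia and clock lists it was 2.76 for NDRG1, 1.87 for VEGFA, 1.78 for BHLHE40, 1.62 for HK2, 1.53 for CRY1 and 1.51 for LDHA. In the neuron list it was 2.26 for GAP43 and 1.90 for NRSN1, and for the hair cell channel gene KCNAB1 it was 1.54. Stress genes gave 2.37 for MAFF, 1.31 for NQO2, 1.23 for ASNS and 1.08 for FTL. KLF1 (1.92) and TFRC (1.20) of the erythrocyte list, SLC24A4 (1.72), SCNN1A (1.503), FGF16 (1.46), ABCG1 (0.96) and PKP4 (0.94) were the remaining positive differences.

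The treated change was the lower for AQP5 (-2.46), TRPM3 (-2.25), GJB6 (-2.22), RCAN1 (-2.07), SLC25A15 (-2.02), TIFA (-2.02), CLDN8 (-1.94), CHAD (-1.71), BTG2 (-1.61), LFNG (-1.32), FADD (-1.26) and MCM5 (-1.23). RCAN1, CLDN8, CHAD, BTG2, LFNG and FADD rose in controls.

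No sample stood apart from the others of its group for any of the 43 genes in the 5 treated samples at 72 to 120 h. Chance alone would mark about 1 in 20 such groups in genes not chosen beforehand. The 43 genes had already passed a test that counts the spread of these 5 samples as error. The samples also come from different times, so that rate need not apply here.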

How the results depend on the processing

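No setting turned the direction of any of the 1099 calls of the control comparison, and the 17 of 102 called genes followed by name that are said to hold in every fit kept adjusted p under 0.05 under all 14 alternatives. A further 34 lost it only when a library was left out. Leaving out each library in turn gave 71 to 1816 calls (11 to 756 higher, 60 to 1060 lower) for the control comparison and 79 to 1282 (63 to 668 higher, 16 to 614 lower) for the difference between arms. With only the samples compared in the fit there were 671 calls (156 higher, 515 lower) for controls and 312 (232 higher, 80 lower) for the difference. Rises in controls numbered 158 with no filter, 530 with rescaling and 198 with all 28 samples and 1 mean per treatment and window, against 322. The cause was not tested. The remaining alternatives, a pseudocount of 0.1, no intensity trend, a filter over all 28 samples and 1 mean per time, kept each count over all features within 1.5 times. Counts in single lists moved more. With 1 mean per time and treatment the falls in hair cell function were 9 (1 as fitted), and the rises were 11 in leukocyte markers (2 as fitted) and 9 in interferon genes (3 as fitted). Over all features 7.53% fell and 4.03% rose in that fit, against 6.49% and 2.69% as fitted. Genes that did not pass changed sign for MCM5 (0.08 as fitted, -0.0049 to 0.18 with a library left out, -0.0036 without 72 h) and ASNS (-0.13 as fitted, -0.33 to 0.11 with a library left out).

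A replicate block by sample number gave 1228 calls in controls (383 higher, 845 lower) and 1232 for the difference, with 579 lower. NR4A2, HSPD1, PSAT1, FAS, FGF19 and UQCR11 lost their call in the control comparison with the block. In hair cell function 4 of 45 genes fell with it, against 7.06% of all features. The labels do not say that a sample number marks a shared animal, batch or day, and 72, 96 and 120 h hold sample 1 alone. Differences between samples 1 and 2 correlated across genes at 0.079 to 0.3 over 10 pairs of control times (8 over 0.1, all positive) and at 0.11 between the arms at 48 h.

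With 3 libraries against 2, of which the 3 are different times, the comparison rests on few samples. Depth differed up to 38.17 against 18.55 M alignments within the 5 libraries, and without counts the precision of low values is unknown.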
